A study of Rattus norvegicus with 29 samples.

Results

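Apolipoproteins are the protein coat of the particles that carry fat and cholesterol in blood, and the liver makes most of them. Apob is the structural protein of very low density lipoprotein, and Mttp, the microsomal triglyceride transfer protein, loads lipid onto Apob in the endoplasmic reticulum. The smaller apolipoproteins exchange between particles and regulate the lipases and receptors that act on them. The genes described here are Apoa1, Apoa2, Apoa4, Apoa5, Apob, Apoc1, Apoc2, Apoc3, Apoe and Mttp in rat liver. A gene was included where a row of the array table carried its symbol and no other. That rule found 8 of the 10 genes, 1 row each, among 27342 transcript clusters. Apoa1 and Apoc3 were not analysed here.

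The livers came from male Sprague-Dawley rats that were 6 to 7 weeks old at the start and were gavaged daily with PMCol or vehicle. PMCol (pentamethylchromanol) is an analog of vitamin E that keeps the chromanol ring and lacks the long phytyl tail. There were 6 rats given 2000 mg/kg and 6 given vehicle that were killed on day 8 after 7 doses. On day 29, after 28 doses, there were 6 rats given vehicle, 6 given 200 mg/kg and 5 given 2000 mg/kg. The vehicle was 1% methylcellulose in water, and the labels give no genetic change for any group. Each of the 29 animals gave 1 Affymetrix whole-transcript array of left liver lobe RNA. Values are on a log2 scale and are centred, so that 0 is the median of a cluster over the 29 arrays. Differences between groups can be read from them, but levels of different genes cannot be compared. The log base was taken as 2, since the sources used here do not give it, and every fold below rests on that.

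The tissue label was checked against marker genes. The rounding left in the deposited digits shows how large a value was before centring. By this measure 12 of 12 hepatocyte markers had values of 8 or more, as did 4 of 11 macrophage markers and 0 of 5 enterocyte markers. Over the whole array 7779 of 27342 clusters did. Of the 8 apolipoprotein and Mttp rows, 8 reached that level. Array quality weights, which are low for an array that deviates from its group over many clusters, were under 0.7 for 4 animals. These were vehicle day 29 replicate 1 (0.282) and replicate 2 (0.67) and 200 mg/kg replicate 1 (0.594) and replicate 3 (0.559). Where leaving out these 4 animals was checked and changed a call of a gene named below, this is stated. It was not checked for the day 29 changes of Apof, Pnpla2, Fitm2, Dgat2, Soat1, Cideb, Abcg1, Abca1, Vldlr, Foxa2 and Foxa3. These are given below as not passing. Nor was it checked for the macrophage markers. Changes of size that left the call as it was are given for some genes only. Whole liver was measured, so fewer cells of a type and less RNA per cell cannot be told apart.

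Apoa4 and Apoa5 lie side by side on rat chromosome 8, next to Apoa1 and Apoc3, and Apoc2, Apoc4, Apoc1 and Apoe follow each other on chromosome 1. The 4 genes below, 2 from each of these clusters, were lower at 2000 mg/kg on both days, and the 250 bases before their starts are shown so that the clusters can be compared. The sequences are from a set of RefSeq promoters (build GRCr8), and the set used here held 5 of the 8 measured genes. They lie at chr8:55435529-55435778 on the plus strand for Apoa4, at chr8:55457621-55457870 on the plus strand for Apoa5, at chr1:88478306-88478555 on the minus strand for Apoc1 and at chr1:88462366-88462615 on the minus strand for Apoc2. Capitals mark AAAGTCC or its reverse complement, and TATAAA.
Apoa4: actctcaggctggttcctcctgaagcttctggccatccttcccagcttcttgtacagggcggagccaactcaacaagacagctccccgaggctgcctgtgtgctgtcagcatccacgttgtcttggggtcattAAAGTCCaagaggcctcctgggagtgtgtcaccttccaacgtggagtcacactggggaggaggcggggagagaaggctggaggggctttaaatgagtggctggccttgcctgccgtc
Apoa5: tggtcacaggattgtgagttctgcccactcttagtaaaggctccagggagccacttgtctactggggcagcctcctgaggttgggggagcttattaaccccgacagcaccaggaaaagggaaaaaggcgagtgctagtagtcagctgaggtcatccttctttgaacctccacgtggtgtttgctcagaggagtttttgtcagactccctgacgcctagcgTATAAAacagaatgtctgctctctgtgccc
Apoc1: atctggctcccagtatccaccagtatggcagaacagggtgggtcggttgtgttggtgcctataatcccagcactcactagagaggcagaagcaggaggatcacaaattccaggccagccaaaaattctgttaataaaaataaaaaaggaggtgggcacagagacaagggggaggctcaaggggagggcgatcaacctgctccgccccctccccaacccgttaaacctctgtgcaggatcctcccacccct
Apoc2: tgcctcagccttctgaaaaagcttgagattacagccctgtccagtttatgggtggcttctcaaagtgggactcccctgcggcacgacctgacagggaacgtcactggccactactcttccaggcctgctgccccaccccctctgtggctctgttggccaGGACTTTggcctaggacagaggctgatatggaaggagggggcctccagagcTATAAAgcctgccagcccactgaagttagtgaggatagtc
Apoa4 and Apoc2 hold the HNF4-type core AAAGTCC, beginning 117 and 91 bases before the start, on opposite strands. HNF4 is a hepatocyte transcription factor known to act on apolipoprotein genes. The core was added after the sequences were read, and 3.99% of 33469 rat promoters of this length hold it on either strand. The longer HNF4-type motif CAAAGTCCA, held by 0.338% of promoters, was in none of the 4. TATAAA was present in Apoa5 and Apoc2 and in 12.9% of all promoters. The antioxidant response element core TGACNNNGC was in none of the 4 and in 10.1% of all promoters. In the promoter of Apoe, the other one held and not printed, it was found once, on the minus strand and beginning 47 bases before the start, and the other 3 motifs were not found there. A match is a description of these letters and does not show that a factor binds there.

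After 7 doses of 2000 mg/kg, 5 of the 8 genes were lower than in vehicle livers (Apoa2, Apoa4, Apoa5, Apoc1 and Apoc2), Mttp was higher, and Apob and Apoe did not pass the test. The test was limma's moderated test in a 5-group model, with Benjamini-Hochberg adjustment over all 27342 clusters and a threshold of 0.05. By that rule 18.6% of all clusters were called on day 8, 9.32% higher and 9.32% lower. The median log2 fold change of the 8 genes was -0.34, against -0.0049 over all clusters. The median absolute change was 0.38, against 0.0752 over all clusters. After 28 doses, 6 of the 8 were lower, the same 5 and Apoe, and Mttp was higher, where 21.6% of all clusters were called (12.1% higher and 9.55% lower). The median log2 fold change was then -0.39, against 0.0025 over all clusters. Without the 4 animals of low array weight the day 29 calls were again 6 lower and 1 higher. All 8 genes are among the 7779 clusters with values of 8 or more before centring, which were called more often than the rest. Of those clusters alone 3559 were called on day 29, and the share on day 8 was also larger than over all clusters. Medians over those clusters were not calculated. The shares given below are over all clusters.

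**Figure D1:**
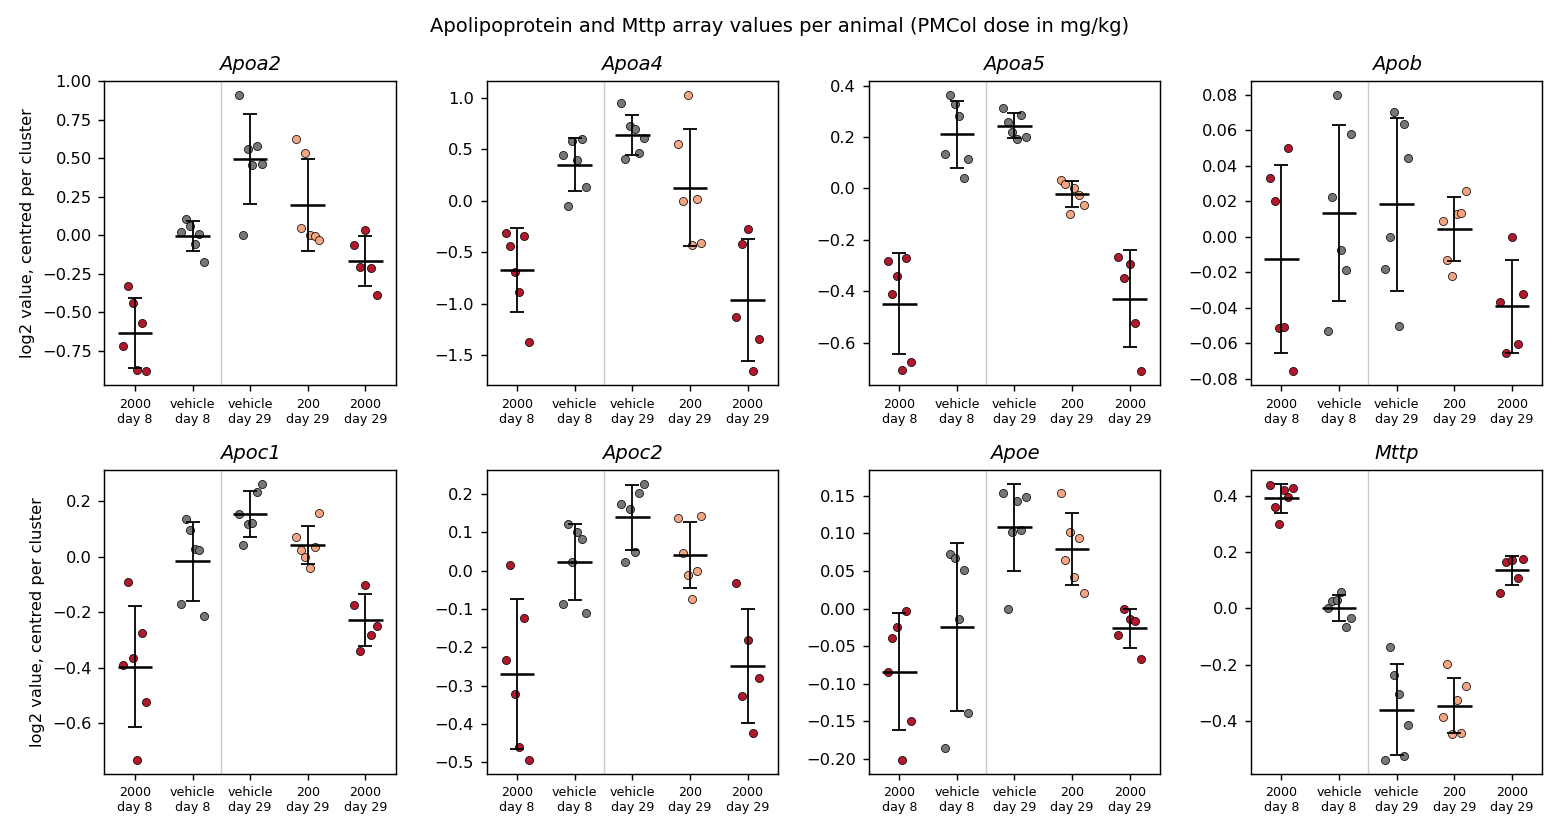
Centred log2 array value (vertical axis) of each of the 8 genes in every animal, by group along the horizontal axis (dose in mg/kg). Points are animals, horizontal bars are group means and error bars are SDs (n = 6, or 5 for 2000 mg/kg on day 29). Apoa4 and Apoa5 lie lower and Mttp higher at 2000 mg/kg than in vehicle animals on both days, without overlap.

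Apoa4, a component of chylomicrons and high density lipoprotein, changed most among the 8. On day 8 its value had a lowest, median and highest of -1.37, -0.56 and -0.32 at 2000 mg/kg, against -0.05, 0.42 and 0.60 in vehicle livers. On day 29 the 5 animals given 2000 mg/kg had -1.13, -0.42, -0.28, -1.66 and -1.34, against 0.41, 0.65 and 0.95 (lowest, median and highest) in vehicle livers. The groups did not overlap on either day, and replicates 2 and 3 of the day 29 group were well above its other 3 animals. The log2 fold change was -1.02 ± 0.23 on day 8 (SE, limma adjusted p = 0.0018) and -1.61 ± 0.24 on day 29 (limma adjusted p = 1.3e-05), a 3.05-fold lower value. Across all clusters 0.728% on day 8 and 0.293% on day 29 had a larger absolute change.

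Apoa5, a secreted protein that raises the action of lipoprotein lipase on triglyceride, was lower on both days. On day 8 its lowest, median and highest values were -0.71, -0.38 and -0.27 at 2000 mg/kg, against 0.04, 0.21 and 0.36 in vehicle livers. On day 29 the animals given 2000 mg/kg had -0.27, -0.35, -0.29, -0.52 and -0.71, against 0.19, 0.24 and 0.31 in vehicle livers. Every treated animal was below every vehicle animal on both days. The log2 fold change was -0.66 ± 0.08 on day 8 (limma adjusted p = 2.4e-07) and -0.67 ± 0.08 on day 29 (limma adjusted p = 3.5e-07).

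Apoa2, a protein of high density lipoprotein, was lower on both days. On day 8 its lowest, median and highest values were -0.88, -0.64 and -0.33 at 2000 mg/kg, against -0.17, 0.02 and 0.11 in vehicle livers, without overlap. On day 29 the values were -0.06, -0.20, 0.04, -0.21 and -0.39 at 2000 mg/kg, against 0, 0.51 and 0.91 in vehicle livers. The groups overlapped on day 29 through vehicle replicate 2, at 0. The log2 fold change was -0.63 ± 0.13 on day 8 (limma adjusted p = 5.5e-04) and -0.66 ± 0.13 on day 29 (limma adjusted p = 4.7e-04).

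Apoc1 and Apoc2 are small apolipoproteins of the same chromosome 1 cluster. Apoc2 is the activator that lipoprotein lipase needs, and Apoc1 limits lipoprotein uptake and the enzymes that act on particles. On day 29 Apoc1 was -0.17, -0.34, -0.10, -0.28 and -0.25 at 2000 mg/kg, against 0.04, 0.14 and 0.26 in vehicle livers. On the same day Apoc2 was -0.03, -0.33, -0.18, -0.42 and -0.28, against 0.02, 0.17 and 0.23 in vehicle livers. Neither gene overlapped between those groups. On day 8 both overlapped, with Apoc1 at -0.73, -0.38 and -0.09 at 2000 mg/kg against -0.21, 0.03 and 0.14 in vehicle livers. The log2 fold change of Apoc1 was -0.38 ± 0.08 on both days, with limma adjusted p = 4.5e-04 on day 8 and 5.7e-04 on day 29. For Apoc2 it was -0.29 ± 0.07 on day 8 and -0.39 ± 0.08 on day 29 (limma adjusted p = 0.0045 and 3.8e-04).

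Apoe, the ligand by which remnant particles bind their receptors, was lower on day 29 by a small amount, with a log2 fold change of -0.14 ± 0.05 (limma adjusted p = 0.034). That call was lost when any of 6 animals was left out in turn (vehicle replicate 1, 4 or 6, or 2000 mg/kg replicate 1, 4 or 5), with adjusted p up to 0.0841. On day 8 its change was -0.06 ± 0.04 and did not pass (limma adjusted p = 0.41). Macrophages also make Apoe. The 11 measured macrophage markers were all lower on day 8 (median log2 fold change -0.98) and 0 of 11 passed in either direction on day 29 (median -0.06). Over all clusters 9.32% were lower on day 8 and 21.6% passed in either direction on day 29. The mean of the 11 markers ranged from -0.66 to 0.11 at 2000 mg/kg and from 0.38 to 1.32 in vehicle livers on day 8, and from -0.81 to 0.50 at 2000 mg/kg and from -0.58 to 0.87 in vehicle livers on day 29. On day 29 the median of that mean was -0.02 at 2000 mg/kg and -0.35 in vehicle livers. These stand in the opposite order to the median fold change of the markers. The part of the markers in the Apoe result was not tested.

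Mttp and Apob are the assembly genes. Mttp was higher on both days. On day 8 its lowest, median and highest values were 0.30, 0.41 and 0.44 at 2000 mg/kg, against -0.07, 0.01 and 0.06 in vehicle livers. On day 29 it was 0.06, 0.16, 0.17, 0.11 and 0.17 at 2000 mg/kg, against -0.54, -0.36 and -0.14 in vehicle livers. No treated animal was within the vehicle range on either day. The log2 fold change was 0.39 ± 0.05 on day 8 (limma adjusted p = 5.2e-06) and 0.49 ± 0.06 on day 29 (limma adjusted p = 2.5e-07). Apob ranged from -0.08 to 0.05 at 2000 mg/kg and from -0.05 to 0.08 in vehicle livers on day 8, and its log2 fold change was -0.03 ± 0.03 on day 8 and -0.06 ± 0.03 on day 29 (limma adjusted p = 0.64 and 0.22).

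Counting separation, 3 of the 8 genes lay wholly below vehicle and 1 wholly above it on day 8, where 5.19% and 5.84% of all clusters did. On day 29 it was 4 below and 1 above, where 4.99% and 6.43% of all clusters did.

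**Figure D2:**
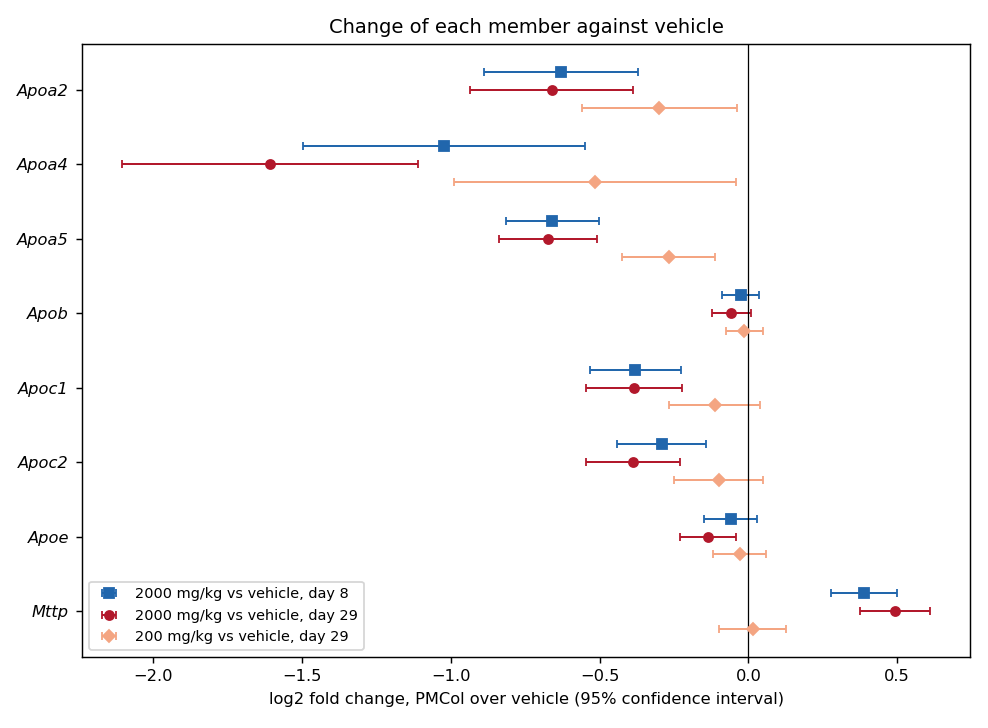
Log2 fold change of PMCol over vehicle (horizontal axis) for each of the 8 genes, with 95% confidence intervals from the 5-group model. Squares are 2000 mg/kg on day 8, circles 2000 mg/kg on day 29 and diamonds 200 mg/kg on day 29. Apoa4 reached -1.61 and Mttp 0.49 at 2000 mg/kg on day 29, and the 200 mg/kg changes lie nearer to 0.

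At 200 mg/kg, 0 of the 8 genes passed limma's test against vehicle on day 29, where 2.78% of all clusters did (1.37% higher and 1.42% lower). At an unadjusted p under 0.05, 3 of the 8 (Apoa2, Apoa4 and Apoa5) were lower. Apoa5 had a lowest, median and highest of -0.10, -0.01 and 0.03 at 200 mg/kg, against 0.19, 0.24 and 0.31 in vehicle livers, without overlap. It was the 1 gene of the 8 whose animals at 200 mg/kg lay wholly below vehicle and 0 lay wholly above, where 0.684% and 0.83% of all clusters did (1.51% in either direction). Its log2 fold change was -0.27 ± 0.08, just short of the threshold (limma adjusted p = 0.0524). It passed under 5 of the planned settings, with adjusted p from 0.0044 to 0.0414, and without 200 mg/kg replicate 1 (0.0481). It did not pass without the 4 animals of low array weight (0.183) or without vehicle replicates 1 and 2 alone (0.145). Apoa2 changed by -0.30 ± 0.13 (limma adjusted p = 0.26) with all animals, and by -0.51 ± 0.10 (limma adjusted p = 0.0045) without those 4. Apoa4 had -0.43, 0.01 and 1.03 at 200 mg/kg, against 0.41, 0.65 and 0.95 in vehicle livers. Its change was -0.52 ± 0.23 (limma adjusted p = 0.30) with all animals and -0.83 ± 0.24 (0.056) without the 4. Replicates 1 and 3 of the 200 mg/kg group were the highest of that group for both Apoa2 and Apoa4, and both are among the 4. Leaving them out was decided after the data were seen. Leaving out vehicle replicates 1 and 2 alone gave -0.32 for Apoa2 (limma adjusted p = 0.18). Mttp differed by 0.01, with a 95% interval from -0.10 to 0.13.

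Between the doses on day 29, 5 of the 8 genes differed, where 9.89% of all clusters did (6.05% higher and 3.84% lower). Apoa4 (-1.09 ± 0.24), Apoa5 (-0.41 ± 0.08), Apoc1 (-0.27 ± 0.08) and Apoc2 (-0.29 ± 0.08) were lower at 2000 than at 200 mg/kg, and Mttp was higher (0.48 ± 0.06, limma adjusted p = 1.5e-06). Without the 4 animals of low array weight Apoa4 differed by -0.76 ± 0.23 (limma adjusted p = 0.0428). The calls of Apoc1 and Apoc2 were lost without those 4 (limma adjusted p = 0.0688 and 0.0525). Apoc1 was also lost without 200 mg/kg replicate 6 or 2000 mg/kg replicate 2, 4 or 5, and Apoc2 without 2000 mg/kg replicate 4. Apoa2 differed by -0.36 ± 0.13 and did not pass (limma adjusted p = 0.087). It passed among clusters with stored values of 8 or more (limma adjusted p = 0.0447), and was -0.17 without the 4 animals (0.32). By separation, 3 genes (Apoa5, Apoc1 and Apoe) lay wholly below the 200 mg/kg animals and Mttp wholly above, where 2.5% and 3.62% of all clusters did (6.12% in either direction). This comparison shares its animals with the comparisons against vehicle.

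The effect of 2000 mg/kg was not shown to differ between the days for any of the 8 genes. In limma's test of the difference of effects, 0 of 8 passed and 0 had an unadjusted p under 0.05, where 0.775% of all clusters passed (0.472% higher and 0.304% lower). Apoa4 came nearest, with -0.58 ± 0.34 (limma adjusted p = 0.44) and a 95% interval that reached down to -1.27.

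Vehicle livers themselves differed between the days for 2 of the 8 genes, where 2.73% of all clusters did (0.962% higher and 1.77% lower). Mttp was lower on day 29 than on day 8, by -0.36 ± 0.05 (limma adjusted p = 8.4e-04), without overlap. The other 7 genes overlapped, where 0.706% of all clusters lay wholly below and 1.25% did not overlap in either direction. Apoa2 was higher by 0.50 ± 0.13 (limma adjusted p = 0.032), a call lost when any of 8 animals was left out in turn (vehicle day 8 replicate 2, 4 or 6, or vehicle day 29 replicate 1, 3, 4, 5 or 6). Apoe was 0.13 higher and did not pass (limma adjusted p = 0.089), but passed with array quality weights (0.0481) and without vehicle day 29 replicate 2 (0.0314). All 11 macrophage markers were lower on day 29 in this comparison (median -1.11), and their part in it was not tested. For Mttp the order of group means was 0.39 (2000 mg/kg, day 8), 0.13 (2000 mg/kg, day 29), 0.0026 (vehicle, day 8), -0.34 (200 mg/kg, day 29) and -0.36 (vehicle, day 29). The last pair overlapped, and so did the animals given 2000 mg/kg on day 29 (lowest 0.0562) and the vehicle animals on day 8 (highest 0.0584).

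Within groups, the genes varied together to different degrees. After removal of group means, Pearson's r over the 29 animals was 0.85 for Apoc1 and Apoc2, 0.70 for Apoc1 and Apoe, 0.63 for Apoa2 and Apoa4 and -0.60 for Apoa2 and Mttp. Apoa5 and Mttp had -0.05. These are descriptions of arrays that share their normalization. They were not recalculated without the animals of low array weight. Of those animals, vehicle day 29 replicates 1 and 2 had the highest and lowest Apoa2 of their group (0.91 and 0). The same replicates had its lowest and highest Mttp (-0.54 and -0.14) and its highest and lowest Apoa4 (0.95 and 0.41). How far the r values of Apoa2 rest on such animals was not tested. Genes were also ranked by their r with Apoa4 over the 29 animals, without removal of group means. Only clusters with a single symbol that is not a provisional name were ranked. The 5 with the highest positive r were F12 (r = 0.89), Utrn (0.89), Gadd45g (0.88), Pbxip1 (0.88) and Itih3 (0.87). After removal of group means they had 0.76, 0.63, 0.63, 0.78 and 0.62 in that order.

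**Figure D3:**
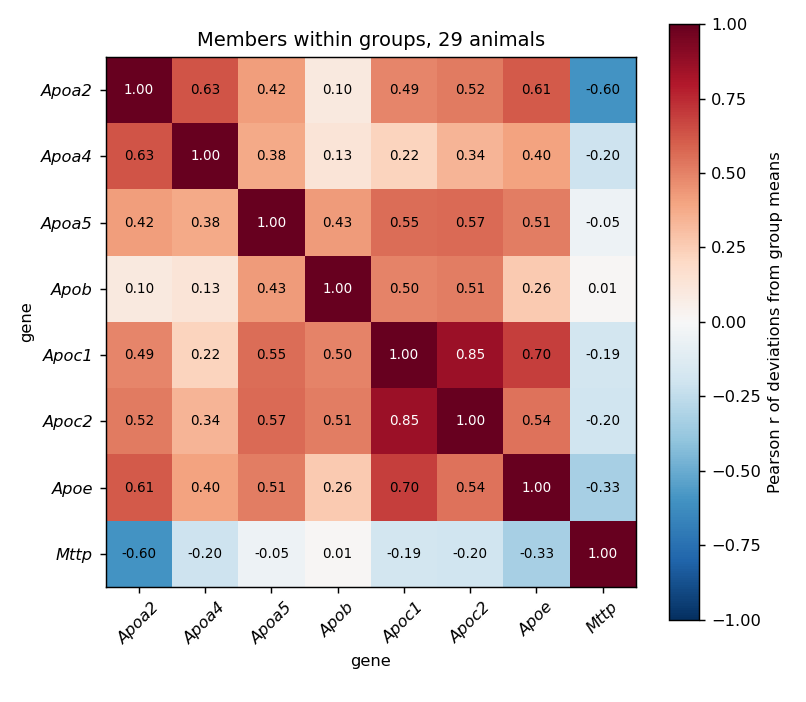
Pearson's r between the 8 genes over 29 animals after removal of group means (colour and printed value; genes on both axes). Apoc1 and Apoc2 have 0.85, and Apoa2 and Mttp have -0.60. The animals of low array weight are included.

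Genes beside the clusters were examined too, at 2000 mg/kg, where 18.6% of all clusters on the array were called on day 8 and 21.6% on day 29. Of 10 genes flanking the chromosome 8 cluster, 5 on each side, 6 were measured. On day 29, 2 of them were lower (Tagln -0.65 ± 0.11 and Bud13 -0.34 ± 0.10) and 2 were higher (Cadm1 0.31 ± 0.06 and Sidt2 0.24 ± 0.04). On day 8, 1 was lower (Pcsk7 -0.17 ± 0.06) and 2 were higher (Cadm1 0.35 ± 0.06 and Pafah1b2 0.19 ± 0.06). Of 10 genes flanking the chromosome 1 cluster, 8 were measured. Only Tomm40 passed on either day, higher by 0.27 ± 0.08 on day 8 and 0.26 ± 0.09 on day 29. The calls of Pcsk7 and Pafah1b2 were lost without any 1 of several animals, with limma adjusted p up to 0.108 for Pcsk7 (vehicle day 8 replicate 3 or 5, or 2000 mg/kg replicate 1, 3 or 6) and 0.0677 for Pafah1b2 (vehicle day 8 replicate 1 or 2, or 2000 mg/kg replicate 3 or 4). Tomm40 was lost on day 8 without vehicle replicate 1 or 6 or 2000 mg/kg replicate 4 (up to 0.0823), and on day 29 without vehicle replicate 1, 5 or 6 or 2000 mg/kg replicate 2, 4 or 5 (up to 0.13). Its day 29 call was also lost under 3 of 10 other settings, among them quantile normalization and only the animals compared. With only the animals compared, Pcsk7 on day 8 was lost too. The window of 5 genes was chosen after values were seen.

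Other apolipoproteins and genes of Apob editing formed a further list. Of 9 measured, 6 were lower and 1 higher on day 8, and 4 were lower and 0 higher on day 29. Over all clusters 9.32% were lower and 9.32% higher on day 8, and 9.55% lower and 12.1% higher on day 29. Apom, the sphingosine phosphate carrier of high density lipoprotein, fell by 0.65 ± 0.07 on day 8 and by 0.77 ± 0.07 on day 29 (limma adjusted p = 3.1e-09). At 200 mg/kg Apom was also lower (-0.25 ± 0.07, limma adjusted p = 0.033), a call lost under 3 planned settings and when any of 8 animals was left out. Without the 4 animals of low array weight it was -0.34 ± 0.07 (limma adjusted p = 0.0096). Apoc4, which lies between Apoc2 and Apoc1, changed by -0.50 ± 0.08 on day 8 and -0.44 ± 0.08 on day 29. Apon changed by -0.44 ± 0.09 and -0.54 ± 0.10, Apoh, which binds anionic phospholipids, by -0.18 ± 0.03 and -0.21 ± 0.03 on the same days, and Apof by -0.46 ± 0.08 on day 8 and by -0.06 ± 0.08 on day 29, which did not pass (limma adjusted p = 0.67).

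Partners of Mttp in lipid supply and particle assembly formed a list of which 19 genes were measured. Of these, 7 were higher and 3 lower on day 8, and 6 were higher and 0 lower on day 29. Among all clusters 9.32% were higher and 9.32% lower on day 8, and 12.1% higher and 9.55% lower on day 29. P4hb, the protein disulfide isomerase that is the other subunit of the transfer protein, was higher by 0.28 ± 0.05 on day 8 and 0.36 ± 0.05 on day 29 (limma adjusted p = 4.8e-06). Soat2, which esterifies cholesterol, was higher by 0.54 ± 0.08 and 0.49 ± 0.08, and Dgat1, which completes triglyceride synthesis, by 0.49 ± 0.10 and 0.45 ± 0.10. Sort1, a sorting receptor for Apob, was higher by 0.39 ± 0.14 on day 8 and 1.15 ± 0.14 on day 29, and its day 8 call (limma adjusted p = 0.042) was lost without vehicle replicate 1, 2, 3 or 5 or 2000 mg/kg replicate 2, 4, 5 or 6 (up to 0.105). The lipase Pnpla2 was higher by 0.66 ± 0.11 and Fitm2, which acts in lipid droplet formation, by 0.46 ± 0.11 on day 8, and on day 29 neither passed (both 0.22 ± 0.11, limma adjusted p = 0.18 and 0.17). The 3 lower genes on day 8, named after their values were seen, were Dgat2 (-0.33 ± 0.10), which like Dgat1 completes triglyceride synthesis, Soat1 (-0.34 ± 0.11), which like Soat2 esterifies cholesterol, and Cideb (-0.21 ± 0.06), which acts in lipidation of lipoprotein particles. Dgat2 was lost without vehicle replicate 4 or 6 or 2000 mg/kg replicate 1 or 3, and Soat1 without vehicle replicate 3 or 6 or 2000 mg/kg replicate 4 (limma adjusted p up to 0.0801 and 0.0915). On day 29 the 3 had -0.09, -0.10 and -0.10 and did not pass. Dgat1, like Mttp, was lower in vehicle livers on day 29 than on day 8 (-0.42 ± 0.10, limma adjusted p = 0.021), a call lost without vehicle day 8 replicate 2 or 4 or vehicle day 29 replicate 5 and with only the animals compared (up to 0.083).

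Of 12 measured lipases, remodelling and efflux genes, 5 were lower on day 8 and 3 on day 29, with 0 higher on either day. Lower clusters made up 9.32% of all on day 8 and 9.55% on day 29, and higher ones 9.32% and 12.1%. Gpld1, a phospholipase carried on high density lipoprotein, changed by -1.18 ± 0.08 and -1.08 ± 0.08, and Lipc, hepatic lipase, by -1.12 ± 0.07 and -0.95 ± 0.07. Lipc was also lower at 200 mg/kg (-0.33 ± 0.07, limma adjusted p = 0.0076). Lpl, lipoprotein lipase, changed by -0.86 ± 0.21 on day 29 (limma adjusted p = 0.0033) and by -0.07 ± 0.20 on day 8, which did not pass. Its day 29 change was -1.09 ± 0.21 without the 4 animals of low array weight (limma adjusted p = 4.5e-04). Lcat, which esterifies cholesterol in plasma, changed by -0.34 ± 0.09 on day 8 and by -0.11 ± 0.10 on day 29, the second of which did not pass with all animals, and was -0.17 ± 0.05 and passed without the 4 animals of low array weight (limma adjusted p = 0.0256). The cholesterol exporters Abcg1 (-0.51 ± 0.12) and Abca1 (-0.38 ± 0.08) were lower on day 8, and on day 29 their changes of -0.18 and -0.04 did not pass.

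Of 8 measured lipoprotein receptor genes, 2 were higher and 6 lower on day 8, and 1 was higher and 2 lower on day 29. For all clusters the shares were 9.32% higher and 9.32% lower on day 8, and 12.1% and 9.55% on day 29. Cd36, a fatty acid and lipoprotein scavenger receptor, was higher by 1.90 ± 0.22 and 1.46 ± 0.23. Lrp1, a remnant receptor, changed by -0.53 ± 0.07 and -0.50 ± 0.08, and Lrp2 by -0.51 ± 0.065 and -0.57 ± 0.068. Lrp2 was also lower at 200 mg/kg (-0.30 ± 0.065, limma adjusted p = 0.0084), a call lost with only the animals compared (0.0924) and without the 4 animals of low array weight (-0.28, 0.0506). Vldlr was higher by 0.40 ± 0.11 on day 8, and its 0.18 ± 0.11 on day 29 did not pass.

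Of 25 measured transcription factors known to act on apolipoprotein genes, 2 were higher and 8 lower on day 8, and 3 were higher and 6 lower on day 29. The shares over all clusters were 9.32% higher and 9.32% lower on day 8, and 12.1% and 9.55% on day 29. Foxa1 was lower on both days (-0.78 ± 0.10 and -0.59 ± 0.11), and Foxa3 (-0.77 ± 0.16) and Foxa2 (-0.70 ± 0.16) on day 8, with -0.10 and -0.12 on day 29, which did not pass. Ppara, the fatty acid receptor, was higher on both days (0.42 ± 0.12 and 0.48 ± 0.13), and Nr1d1 (0.99 ± 0.25) and Srebf2 (0.37 ± 0.11) on day 29, with 0.35 and 0.13 on day 8, which did not pass. Hnf4a changed by -0.14 ± 0.04 on day 8 (limma adjusted p = 0.025) and by 0.03 ± 0.05 on day 29 (0.74). Its day 8 call was lost without replicate 3 or 4 of either group (limma adjusted p up to 0.067). On day 29 Nr1d1 was 0.60 ± 0.22 and lost its call without the 4 animals (0.0514), and Srebf2 lost its call with only the animals compared (0.0981). Without the 4 animals Ppara was 0.33 ± 0.10 and Srebf2 0.29 ± 0.10 on day 29. Both kept their calls (limma adjusted p = 0.024 and 0.040).

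Some hepatocyte markers were lower too. Of 12, 9 were lower on day 8 (median -0.18), where 9.32% of all clusters were. On day 29 it was 6 (median -0.17), where 9.55% of all clusters were lower, and 0 were higher on either day. On day 8 the mean of the 12 markers ranged from -0.30 to -0.06 at 2000 mg/kg and from -0.13 to 0.06 in vehicle livers. On day 29 it ranged from -0.12 to -0.07 at 2000 mg/kg and from 0.04 to 0.12 in vehicle livers. Fga changed by -0.48 ± 0.07 and -0.33 ± 0.07 and Cps1 by -0.29 ± 0.06 and -0.39 ± 0.06, while Alb changed by 0.01 ± 0.04 and -0.02 ± 0.04. Of 5 enterocyte markers, 2 were higher on day 29 (Fabp2 1.18 ± 0.22 and Rbp2 0.35 ± 0.11) and 0 passed on day 8. Over all clusters 12.1% were higher on day 29 and 18.6% passed in either direction on day 8. Rbp2 was lost without vehicle replicate 2 or 3 or 2000 mg/kg replicate 1, 2 or 3 (limma adjusted p up to 0.108). It was also lost without the 4 animals and without vehicle replicates 1 and 2 alone. The part of either marker list in the apolipoprotein and Mttp results was not tested.

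**Figure D4:**
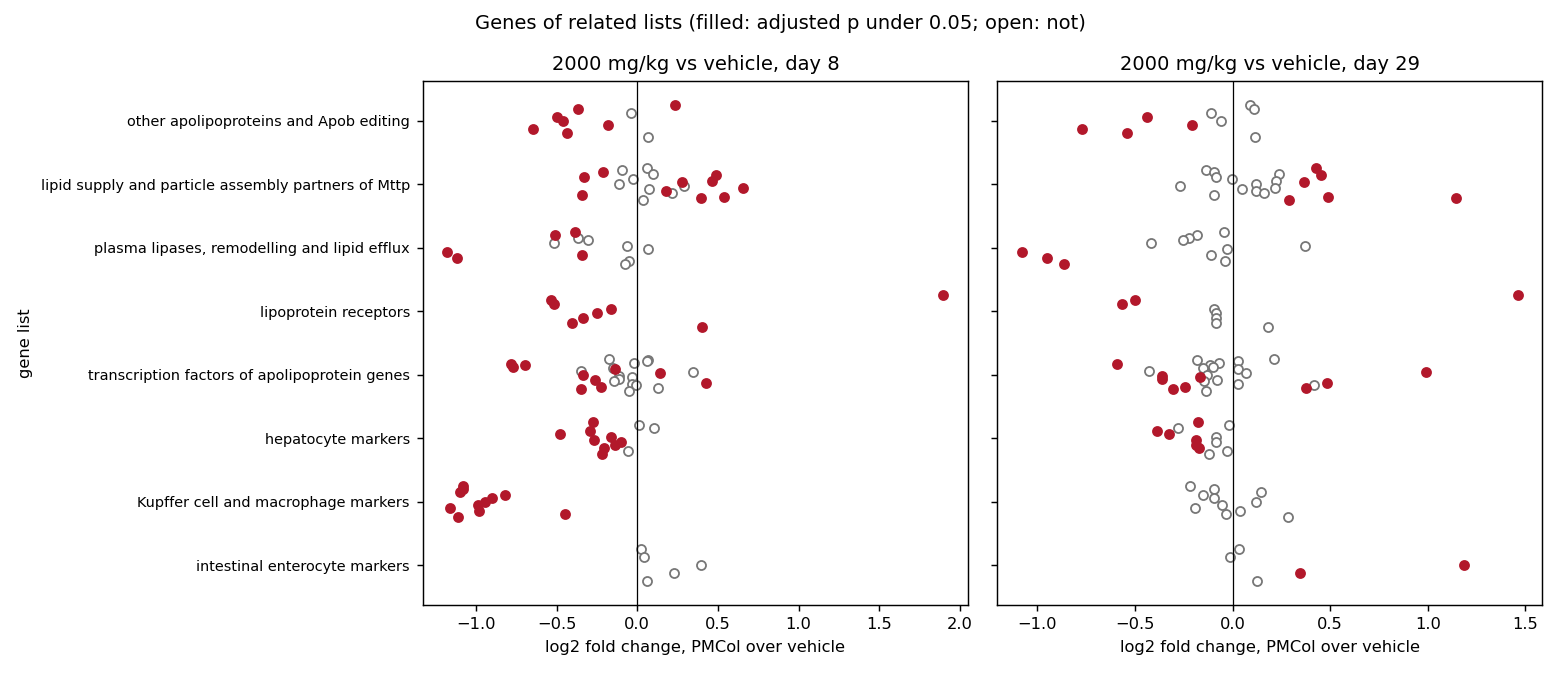
Log2 fold change of 2000 mg/kg over vehicle (horizontal axes) for each measured gene of 8 related lists (rows), on day 8 (left) and day 29 (right). Filled points passed an adjusted p of 0.05 and open points did not. All 11 macrophage markers are filled and below 0 on day 8 and open on day 29, and Cd36 is the highest receptor on both days.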

How the data were processed

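Total RNA (150 ng) of 29 livers was hybridised to Affymetrix whole-transcript arrays, per the labels' protocols, and the sample titles number the animals as biological replicates. The authors deposited log values, taken here as log2, for 27342 transcript clusters. PLIER and MAS5 are named per the submitters' processing notes, without role or version. Every cluster has a median of 0 over the 29 arrays, so the authors' values are centred. The log base, the offset, the step between arrays, the scan dates and the genome build are unknown (not given in the sources used here). Array medians lay between -0.023 and 0.0287. Precision is limited by the number of arrays.

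The values were used as deposited in limma 3.58.1 (R 4.3.3), in a linear model of 5 groups fitted to all 29 animals, with empirical Bayes moderation and Benjamini-Hochberg adjustment over all clusters. The test was two-sided with a threshold of 0.05, and was tested on simulated data. There were 6 comparisons. Symbols came from the platform annotation, which gave 15097 clusters 1 symbol, 323 several and 11922 none. The rule for naming genes took all measured members and, per list and comparison with vehicle, up to 4 called genes with the largest absolute change. It also took Alb, Hnf4a, Ppara, Lpl, Lcat, P4hb, Apoh and Apom whatever their change. Aadac, Ahsg, Fgg, Hpx, Clec4f, Vsig4, C1qb and Adgre1 were picked by this rule but are not described above. Pltp had no row with that symbol alone and is not analysed here. Where a gene had several rows, the lowest probe number was used. The members and lists were chosen with earlier results of these data known. Promoter motifs were searched on both strands with Python 3.11.15. The alternatives were quantile normalization, array centring, subsets of clusters, only the animals compared, trend and robust moderation, array weights, the replicate number as a block, a threshold of 0.01 and leaving out animals. Rats given 200 mg/kg for 7 days are not analysed here.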

Additional observations from a re-analysis of the deposited data

Results flagged for a closer look

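Apoe in vehicle day 29 replicate 2 lay far below the other 5 animals of its group, at -0.000239 against a next lowest of 0.10 (a gap of 0.659 of the group's range, above Dixon's 95% critical value for 6 animals). It was 1 of 40 combinations of gene and group tested, and chance sets apart about 1 in 20. The animal is among the 4 with low array weights. Tagln, a gene beside the chromosome 8 cluster, was 1 gene of 57 named genes tested whose response to 2000 mg/kg differed between the days by limma's test of the difference, with a log2 change of effect of -0.62 (day 29 minus day 8). Over all clusters 0.775% passed that test, so a call among 57 genes is not unusual. The Tagln difference between days was not checked under the other settings.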

How the results depend on the processing

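The 8 genes gave 6 calls on day 8 under every alternative run, and 6 or 7 calls at 2000 mg/kg on day 29. At 200 mg/kg the count of 0 became 1 under quantile normalization, clusters with 1 symbol only, clusters with stored values of 8 or more, only the animals compared and the replicate block (Apoa5 in each), and also 1 without the 4 animals of low array weight (Apoa2). Leaving out each animal in turn gave 0 to 1 there, 3 to 5 calls between the doses (main 5) and 1 to 3 in vehicle livers between the days (main 2). Between the doses 3 remained at a threshold of 0.01 and 3 without the 4 animals. Vehicle livers gave 1 at 0.01 and 1 with only the animals compared. Counts over all clusters moved further. With stored values of 8 or more 3246 (day 8) and 3559 (day 29) were called, with 7779 clusters tested. The 8 genes are all among these clusters, and the share called there was larger than over all clusters. At 0.01 the 6 comparisons, in the order of the report, gave 3244, 3754, 277, 1364, 28 and 77. With only the animals compared 340 were called at 200 mg/kg and 136 in vehicle livers. The change of effect between days gave 102 under quantile normalization, 673 with array weights, 620 without vehicle day 29 replicates 1 and 2, 841 without the 4 animals, and 76 to 563 without each animal (main 212). Vehicle livers gave 1773, 1374 and 1853 under the last 3 of those settings and 254 to 2141 without each animal (main 746, and 2141 without vehicle day 29 replicate 2). Without each animal 436 to 1102 clusters were called at 200 mg/kg and 1755 to 2813 between the doses. Both settings that leave out several animals were chosen after seeing the data. The first, without vehicle day 29 replicates 1 and 2, was taken over from earlier work on these data. The second applies 1 weight limit to all groups, since 200 mg/kg replicates 1 and 3 have lower weights than vehicle replicate 2. The cause of these movements was not tested.

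Directions turned only for differences that had not passed. These were Mttp at 200 mg/kg (-0.0723 under quantile normalization, -0.0217 to 0.0581 without each animal), the change of effect of Apoa2 (0.00079 with array weights, -0.131 to 0.0521 without each animal), of Apoa5 (0.0060 under both settings that leave out several animals, -0.066 to 0.0563 without each) and of Apoc1 (-0.0709 to 0.0569), Apob in vehicle livers between days (-0.008461 to 0.01856 without each animal) and Alb on day 8 (-0.03825 to 0.03698 without each animal).

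After removal of group means, in no pair of groups did every same-numbered pair of animals correlate over 0.1, and at most 3 of 6 did. Median r of same-numbered pairs was 0.11 for vehicle day 8 and 200 mg/kg, against -0.02 for other pairs. It was 0.07 for the 2 day 8 groups (others -0.01), and -0.18 for 2000 mg/kg and vehicle on day 29 (others -0.0024). A rule that asks every pair to pass cannot exclude a weaker pairing, and whether the numbers pair animals is not known. With the replicate number as a block 1 gene passed at 200 mg/kg (Apoa5, limma adjusted p = 0.0414) and Apoa2 passed between the doses (-0.40, limma adjusted p = 0.0316).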
